A study of Homo sapiens with 34 samples.

Results

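Mock-transfected androgen-independent cells (AI) were compared with mock-transfected androgen-dependent cells (AD). LNCaP is an established human prostate cancer line with luminal features. AD cells were LNCaP grown in RPMI1640 medium, and AI cells were an androgen-independent form of the same line kept in RPMI1640 with charcoal-stripped serum, which is depleted of steroids and of other lipophilic factors. All 4 libraries came from cells collected 24 h after transfection of a mock siRNA with Lipofectamine 2000, a cationic lipid, with 2 libraries from AD and 2 from AI. They were 4 of the 34 samples and 4 of the 12 RNA-seq libraries of the series. The series was made to study EZH2 and also held untreated libraries and libraries given siRNA against EZH2 (siEZH2), 4 of each. Polyadenylated RNA was sequenced. Cell line and medium went together, so an effect of the growth history and one of the stripped serum cannot be told apart. The treatment protocol speaks of LNCaP/abl alone, whereas libraries titled AD also carry the mock name, and the titles were followed. Nothing says whether the 2 libraries of a group were separate cultures, so each p-value is set against the spread of these samples only, and that spread may be technical. Of 28071 listed genes, 12809 reached 0.5 RPKM (reads per kilobase of gene per 1000000 reads) in at least 2 of the 4 mock libraries and were tested.

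Several pathways that meet in these cells are described below. Sterol regulatory element binding proteins (SREBPs) are transcription factors held in the endoplasmic reticulum (ER) by INSIG proteins while sterol is plentiful, and released when it is scarce to switch on cholesterol and fatty acid enzymes. The integrated stress response lowers general translation while raising ATF4, which drives genes of amino acid supply. Foreign nucleic acid in the cytoplasm is read by RNA helicase sensors, which lead to interferon and, through STAT factors, to a set of antiviral genes. Androgens drive luminal genes such as KLK3, which encodes prostate-specific antigen, at sites where FOXA1, a factor that opens chromatin, also binds.

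The cells carried the markers of luminal prostate epithelium. All 15 luminal markers on the list averaged at least 0.5 RPKM. Their summed level was 3469 to 3610 RPKM in the AD libraries and 3675 to 3686 RPKM in the AI libraries. KLK3 alone, given below, held a large part of these sums. By the limma calls described below, 9 of the 15 were lower in AI and 3 higher, with a median log2 change of -0.77. On all 3 scales used below, 6 were lower and 2 higher. Of 9 basal markers 2 reached that average. The 8 blood markers summed to 0.42 RPKM at most, and the 6 endothelial markers to 0.61 RPKM at most, in any mock library. The 9 fibroblast and smooth muscle markers summed to 4.21 RPKM at most, and 2 of them averaged at least 0.5 RPKM. CD3E and CD14 were listed at 0 in all 4 libraries. In bulk RNA, fewer cells of a kind and less RNA per cell cannot be told apart. KLK3 was at 1912 and 1726 RPKM in AD and 2322 and 2320.4 RPKM in AI (log2 change 0.35, SE 0.189, limma adjusted p = 0.131). The AI values lay above the AD values, but the difference did not pass the test, and the scales differed: -0.59 with quantile normalization (adjusted p = 0.0591) and 0.82 with TMM (adjusted p = 0.0046). EZH2, the H3K27 methyltransferase of Polycomb repressive complex 2 (PRC2), was at 10.9 and 12.5 RPKM in AD and 7.07 and 5.44 RPKM in AI (log2 change -0.86, SE 0.183, limma adjusted p = 0.00249). Its log2 change was -0.35 after quantile normalization (adjusted p = 0.144) and -0.42 after TMM scaling (adjusted p = 0.0815). The fall was thus called on the RPKM scale alone.

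Depth estimated from the spacing of low values was 9.54 and 12.02 M reads (M, 1000000) for AD and 8.94 and 12.7 M for AI, from 10 or 11 values a library. The libraries of a group were close, with Pearson's r across the 12809 genes of 0.989 in AD and 0.991 in AI, and r lay between 0.899 and 0.904 for AI against AD. Genes are not independent replicates, so these r values only describe the libraries. RNA makeup differed between the lines. The 100 genes with the highest values held 24.4% and 24.0% of summed RPKM in AD and 35.5% and 35.7% in AI. Genes at 0.5 RPKM or more numbered 12913 and 12873 in AD and 11368 and 11355 in AI.

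With limma on log2(RPKM + 0.5), a scale that understates the change of low genes, 7755 genes (60.5%) passed a Benjamini-Hochberg adjusted p of 0.05. Of these, 1733 (13.5%) were higher in AI and 6022 (47%) were lower. The median log2 change over all genes tested was -0.43 on the RPKM scale, 0.027 after quantile normalization and -0.032 after trimmed-mean (TMM) scaling. The calls were 53.9% of genes with quantile normalization and 58.8% with TMM. The split moved with the median, to 3430 higher (26.8%) and 3478 lower (27.2%) with quantile normalization and to 3532 (27.6%) and 4005 (31.3%) with TMM. A direction is therefore led with below where it was called on all 3 scales, which held for 1654 genes higher in AI (12.9%) and 3043 lower (23.8%). The counts of each list are read against these shares. A signed value in parentheses after a gene is its log2 change on the RPKM scale. Only 1 gene called on the RPKM scale was called the other way with quantile normalization or TMM. Calls with quantile normalization and with TMM were not compared with each other in that count. The AD and AI values did not overlap for 10832 genes (84.6%). Change went with level: among 285 genes averaging 200 RPKM or more, 46.7% were called higher and 14.4% lower, against 7.26% and 48.0% among 3085 genes between 0.5 and 2 RPKM. The median change was 0.46 in the first bin and -0.58 in the second.

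**Figure D1:**
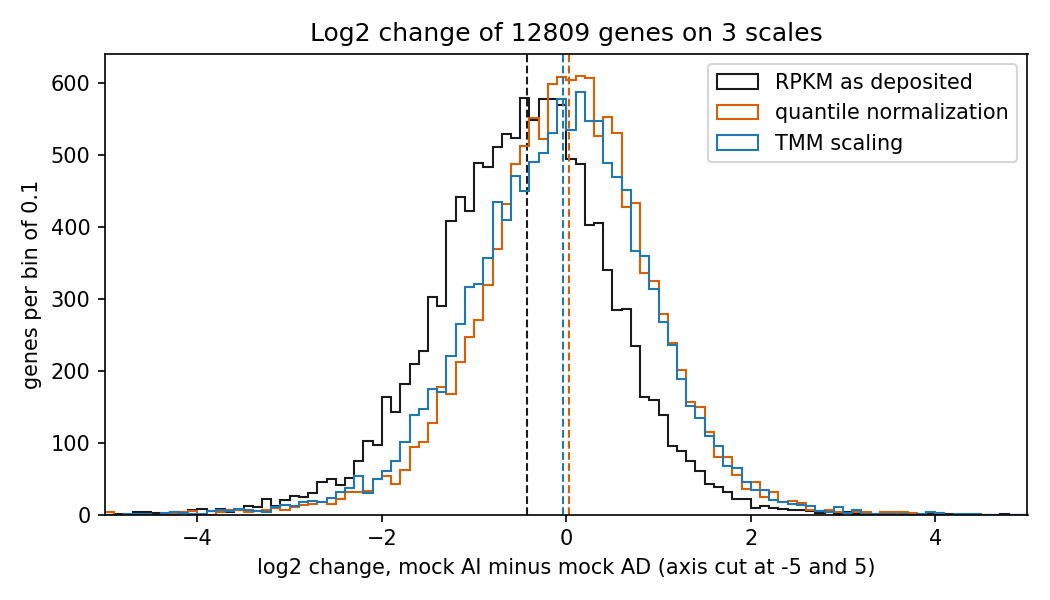
Distribution of the log2 change (AI minus AD, mock cells) over the 12809 genes tested, on 3 scales. The horizontal axis is the log2 change and the vertical axis the number of genes per bin of 0.1; the dashed lines mark the medians, -0.43 for RPKM as deposited, 0.027 for quantile normalization and -0.032 for TMM.

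Short stretches upstream of some members are shown first because the antiviral genes shared a sequence that the comparison did not use. The interferon-stimulated response element, to which interferon regulatory factors bind, was searched as GAAA, any 2 bases and GAAA on both strands in RefSeq promoters of 300 bases (250 before to 50 after the start, GRCh38.p14). It stood in 235 of the 9532 promoters matched to tested genes (2.47%), in 12 of the 18 matched among interferon effectors, in 5 of 9 among antigen presentation genes and in 2 of 13 among RNA sensors and interferon signalling genes. The stretches below run 5′ to 3′ on the gene's strand, end at or before the start, and have the matches in capitals, where neighbouring matches can overlap.
IFITM1: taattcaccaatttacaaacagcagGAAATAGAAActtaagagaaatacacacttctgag
IFI44: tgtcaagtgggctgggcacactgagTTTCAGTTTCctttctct
BST2: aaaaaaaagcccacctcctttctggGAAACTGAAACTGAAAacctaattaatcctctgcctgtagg
HERC5: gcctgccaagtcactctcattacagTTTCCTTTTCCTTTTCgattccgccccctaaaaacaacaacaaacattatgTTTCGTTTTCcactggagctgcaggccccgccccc
TAPBP: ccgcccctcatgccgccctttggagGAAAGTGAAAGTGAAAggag
PSMB10: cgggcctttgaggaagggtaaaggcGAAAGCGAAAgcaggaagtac
They lie at chr11:313975-314034, plus strand (IFITM1), chr1:78649746-78649788, plus strand (IFI44), chr19:17405720-17405785, minus strand (BST2), chr4:88456969-88457079, plus strand (HERC5), chr6:33314079-33314123, minus strand (TAPBP) and chr16:67936851-67936896, minus strand (PSMB10). All 6 genes were lower in AI, as given below. A match describes the letters in the window and does not show binding.

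Antiviral effectors stood far lower in AI than in AD. Of 34 listed effectors 21 were tested, 20 fell and none rose, with a median log2 change of -3.32 beside -0.43 over all genes, and 16 fell on all 3 scales. Members such as OASL, HERC5 and IFITM2 passed the filter only through AD, where they were high, which favours falls. With no filter 27 were fitted, of which 24 fell and 0 rose. The median was then -2.04, beside -0.056 over all genes. OASL, a relative of the 2-5A synthetases that enhances RNA sensing, was at 64.5 and 58.3 RPKM in AD and 0.34 and 0.26 RPKM in AI (log2 change -6.27, SE 0.129, limma adjusted p = 9.26e-09). IFI44, an interferon-induced cytoplasmic protein, was at 14.7 and 17.5 RPKM in AD and 0.13 and 0.74 RPKM in AI (log2 change -4.23, SE 0.365, limma adjusted p = 9.24e-06). Both AI libraries were below 1 RPKM for each gene while both AD libraries were above 14. BST2, or tetherin, which holds budding virions at the membrane, was at 22.2 and 22.96 RPKM in AD and 0.44 and 1.15 in AI (log2 change -4.21, SE 0.301, limma adjusted p = 3.04e-06). HERC5, the ligase that attaches ISG15, was at 8.86 and 8.85 RPKM in AD and 0.16 and 0.11 in AI (log2 change -3.88, SE 0.174, limma adjusted p = 3.14e-07). The membrane proteins IFITM1 and IFITM2 block viral entry and are close paralogs, so reads could be split between them. IFITM1 was at 18.9 and 16.6 RPKM in AD and 0.54 and 0.08 in AI (log2 change -4.55, SE 0.351, limma adjusted p = 4.54e-06) and IFITM2 at 30.8 and 30.2 RPKM in AD and 0.11 and 0.37 in AI (log2 change -5.41, SE 0.379, limma adjusted p = 2.79e-06). The AI and AD values overlapped in none of these 6 genes, which were named for the size of their change. No overlap was also seen for 84.6% of all genes tested. The 1 tested effector that was not called, named after its values were seen, was USP18, a protease that removes ISG15 and dampens the interferon receptor, at 18.9 and 21.04 RPKM in AD and 21.2 and 18.8 RPKM in AI (adjusted p = 0.999), although it was called higher with TMM (0.46, adjusted p = 0.00437).

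The sensing arm was lower as well. Of 20 tested sensors and signalling genes, 17 fell and none rose (median -1.05), 11 of them on all 3 scales. DHX58 and IFNL1 passed the filter only through AD, and with no filter 16 of 25 fell and 0 rose (median -0.74). RIGI, which detects RNA ends with triphosphate, was at 6.14 and 6.69 RPKM in AD and 0.36 and 0.67 RPKM in AI (log2 change -2.78, SE 0.195, limma adjusted p = 2.8e-06). IFIH1 (MDA5), which detects long double-stranded RNA, was at 3.94 and 3.75 RPKM in AD and 0.66 and 0.61 in AI, and DHX58 (LGP2), their regulator, at 2 and 2.13 RPKM in AD and 0.09 and 0.06 in AI, with log2 changes of -1.94 and -2.16. STAT2 was at 8.5 and 7.56 RPKM in AD and 2.14 and 1.75 in AI (log2 change -1.81, SE 0.188, limma adjusted p = 2.92e-05), and IRF2 at 13.5 and 13.3 RPKM in AD and 3.68 and 4.76 in AI (-1.57). IFNL1, an interferon of the lambda family, was at 1.83 and 2.04 RPKM in AD and 0 and 0 in AI and was listed at 0 in all 4 untreated libraries (log2 change -2.28, SE 0.167, limma adjusted p = 3.41e-06). Among mock libraries it was thus seen in AD alone, at a low level.

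Antigen presentation followed in part: 10 of 11 tested members fell and 1 rose, of which 6 and 1 did so on all 3 scales. PSMB9, a subunit of the immunoproteasome that trims peptides for class I molecules, was at 6.35 and 6.33 RPKM in AD and 0.24 and 0.76 RPKM in AI (log2 change -2.82, SE 0.295, limma adjusted p = 2.96e-05). Its partners PSMB8 and PSMB10 changed by -1.31 and -1.81, the trimming peptidase ERAP1 by -1.28 and the loading factor TAPBP by -1.20. Class I heavy chain genes are near-identical in long stretches, so their reads could have been split, and their part in these counts is uncertain.

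Chemokines and feedback genes of NF-kB showed the same direction, with 14 of 19 tested members lower and 1 higher (median -1.27, with 11 and 1 on all 3 scales). With no filter 14 of 22 were lower and 1 higher (median -1.18). LCN2, an iron-binding acute phase protein, was at 115 and 117 RPKM in AD and 0.64 and 0.08 RPKM in AI (log2 change -7.16, SE 0.325, limma adjusted p = 3.14e-07). CCL2, which attracts monocytes, was at 13.8 and 15.5 RPKM in AD and 0.3 and 0.42 in AI (log2 change -4.14, SE 0.209, limma adjusted p = 4.67e-07) and CCL20 at 5.83 and 8.11 RPKM in AD and 0.13 and 1.02 in AI (log2 change -2.92, SE 0.533, limma adjusted p = 0.00101). The complement component C3 changed by -2.24, TNFAIP2 by -2.47 and NFKB1, the p105/p50 subunit, by -1.70. The 1 member that rose, named after its values were seen, was IER3, at 25.3 and 22.4 RPKM in AD and 50.9 and 41.6 in AI (log2 change 0.93, SE 0.178, limma adjusted p = 0.0013). GGGNNTTCC, the core of the NF-kB site, stood in 4 of 14 matched promoters of these genes and in 8.12% of the promoters of tested genes.

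In several of these genes the high values were those of mock AD. In untreated cells OASL was at 0 and 0.02 RPKM in AD and 0.6 and 0.62 RPKM in AI, LCN2 at 0.28 and 0 RPKM in AD and 0.88 and 0.38 RPKM in AI and CCL2 at 0 and 0 RPKM in AD and 0.1 and 0.1 RPKM in AI. For these 3 genes the untreated libraries of both lines stayed below 1 RPKM, as did mock AI. The median untreated change of the interferon effectors was 0.55, so the list lay on opposite sides of 0 in the 2 states. For OASL the AI against AD change in mock cells minus that in untreated cells was -7.40 (limma adjusted p = 2e-08), for IFI44 -5.29 (adjusted p = 3.57e-05) and for LCN2 -7.98 (adjusted p = 2.47e-06). In the siEZH2 libraries, which were transfected too, OASL was at 80.1 and 80.2 RPKM in AD and 0.39 and 0.32 RPKM in AI. IFITM2, by contrast, was lower in AI in untreated cells too, at 20.7 and 12.1 RPKM in AD and 0.46 and 0.15 RPKM in AI (log2 change -4.37).

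**Figure D2:**
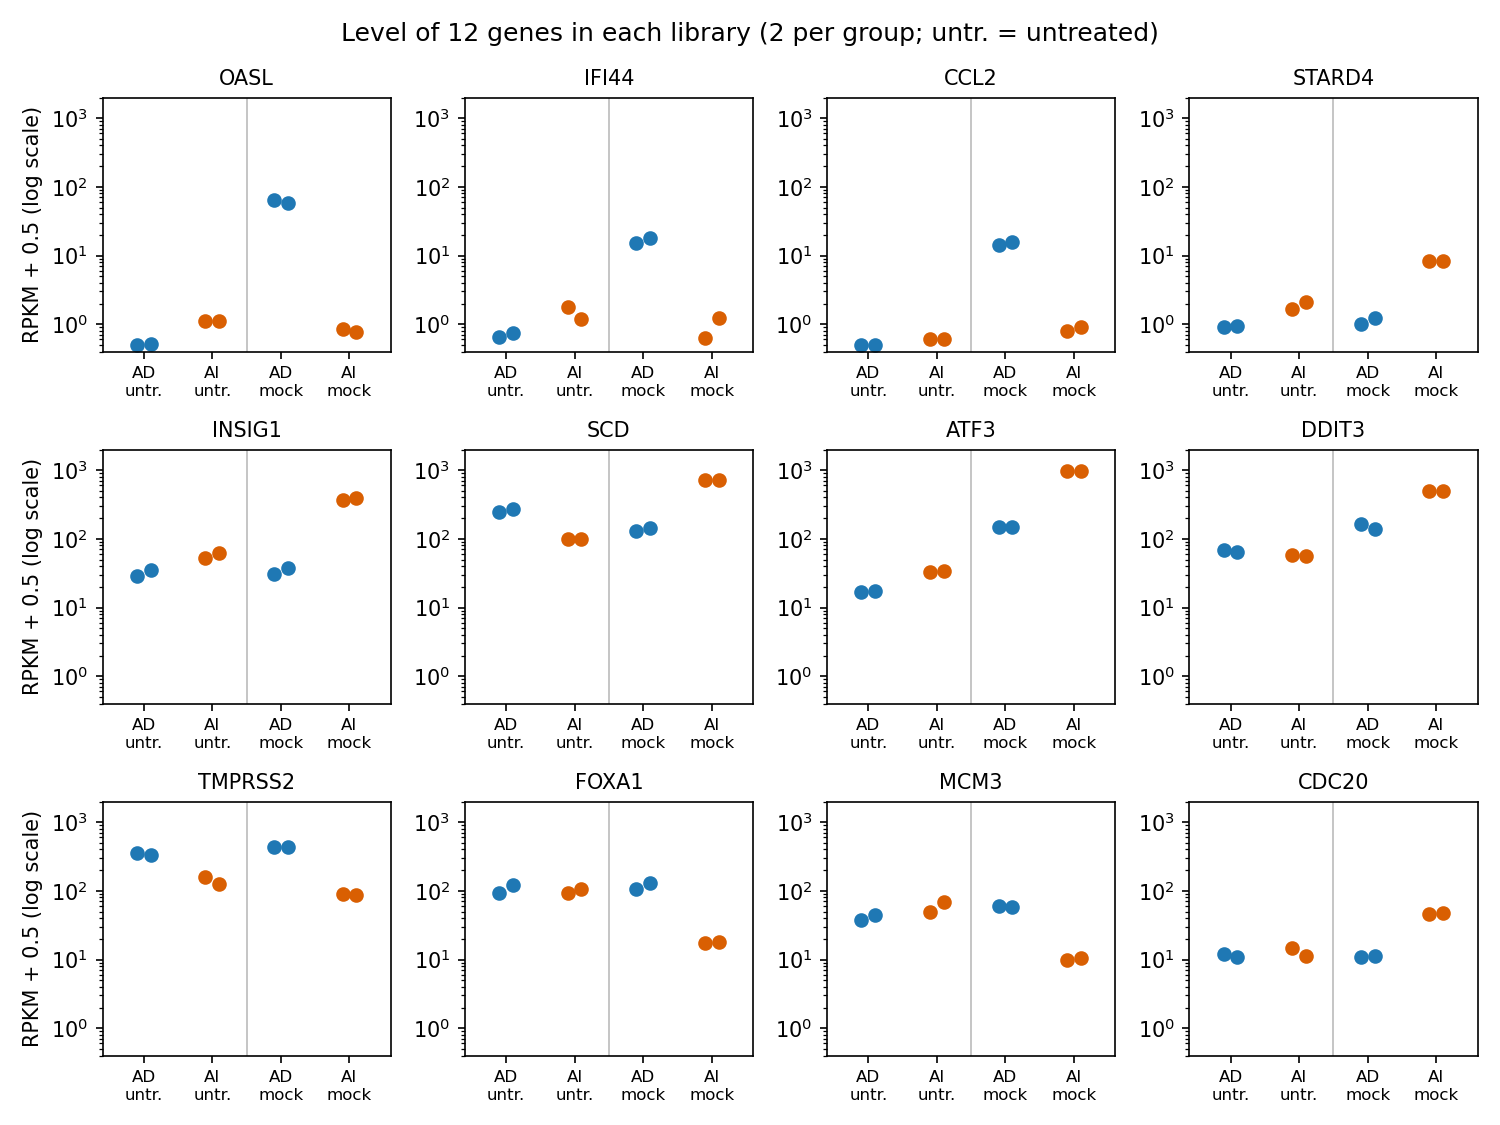
Levels of 12 genes in each RNA-seq library of untreated and mock-transfected cells. Each point is 1 library, the vertical axis is RPKM on a log scale after adding 0.5, with AD in blue and AI in orange; OASL, IFI44 and CCL2 stand out only in mock AD, and STARD4, INSIG1 and ATF3 are highest in mock AI.

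Cholesterol synthesis genes were higher in AI. All 21 listed enzymes were tested, 12 rose and 2 fell, with a median log2 change of 0.94, and 12 rose and 1 fell on all 3 scales. FDFT1, squalene synthase, the first enzyme committed to sterols, was at 88.6 and 87.4 RPKM in AD and 534 and 549.9 RPKM in AI (log2 change 2.62, SE 0.0889, limma adjusted p = 6.92e-08). MSMO1, which removes methyl groups from early sterols, was at 3.34 and 3.94 RPKM in AD and 41.1 and 50.01 RPKM in AI (log2 change 3.47, SE 0.247, limma adjusted p = 2.99e-06). AD and AI values did not overlap for either gene, as for 84.6% of all genes tested, and both were named for the size of their change. The late enzymes EBP and DHCR7 rose by 1.32 and 1.36, and the isoprenoid isomerase IDI1 by 1.36 from a low level (0.45 and 0.43 RPKM in AD and 1.5 and 2.42 in AI). GGPS1, which makes geranylgeranyl diphosphate and so leads away from sterols, fell, at 8.31 and 9.52 RPKM in AD and 2.37 and 3.83 in AI (log2 change -1.41, SE 0.218, limma adjusted p = 0.000357).

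Genes of sterol sensing, uptake and export moved in both directions. INSIG1, which retains SREBPs and is itself an SREBP target, was at 29.8 and 36.8 RPKM in AD and 364 and 394 RPKM in AI (log2 change 3.50, SE 0.141, limma adjusted p = 1.87e-07). STARD4, a cholesterol carrier, was at 0.51 and 0.75 RPKM in AD and 7.72 and 7.77 in AI (log2 change 2.88, SE 0.221, limma adjusted p = 4.47e-06), and SREBF2, the sterol-directed SREBP, at 25.4 and 23.8 RPKM in AD and 56.1 and 54.2 in AI (log2 change 1.15, SE 0.126, limma adjusted p = 3.91e-05). For each of these 3 genes the AI values were at least 2 times the AD values. SREBF1 was at 115 and 110.3 RPKM in AD and 99.9 and 96.6 in AI and was not called (-0.19, adjusted p = 0.164). MYLIP, a sterol-responsive ubiquitin ligase, fell, at 4.99 and 5.3 RPKM in AD and 0.92 and 2.09 in AI (log2 change -1.56, SE 0.242, limma adjusted p = 0.000368), as did NR1H2 (LXR beta), a sterol sensor that favours export, by 0.88. Of the 14 tested genes of sensing, uptake and export, 4 rose and 5 fell, 4 and 2 on all 3 scales, and 3 fell without the second AI mock library. With quantile normalization 6 rose and 2 fell, and with TMM 7 and 3. The sterol regulatory element, searched as TCACNCCAC, stood in 1.09% of promoters of tested genes, in none of 16 matched cholesterol enzymes and in 1 of 12 matched regulators, SREBF2, which is shown for this reason (chr22:41832947-41833005, plus strand).
SREBF2: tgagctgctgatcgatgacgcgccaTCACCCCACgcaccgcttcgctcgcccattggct

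Fatty acid enzymes rose with them, 10 of 17 tested against 2 that fell (median 0.62), and the 10 rises but neither fall held on all 3 scales. With any 1 mock library left out 1 fall was called. SCD, the stearoyl-CoA desaturase, was at 128 and 142 RPKM in AD and 709.6 and 709 RPKM in AI (log2 change 2.39, SE 0.101, limma adjusted p = 2.43e-07). FASN, fatty acid synthase, was at 175 and 171 RPKM in AD and 547 and 519 in AI (log2 change 1.62, SE 0.106, limma adjusted p = 1.92e-06), and ACSS2, which makes acetyl-CoA from acetate, at 18.5 and 18.9 RPKM in AD and 73.8 and 73.9 in AI (log2 change 1.95, SE 0.102, limma adjusted p = 5.56e-07). FADS2, a desaturase of polyunsaturated fatty acids, rose by 1.52, LPIN1 by 1.16 and ELOVL1, an elongase, by 1.03. In untreated cells 8 fatty acid genes were higher in AI and 4 lower (median 0.30), and 15 cholesterol genes were higher and none lower (median 0.72). Against the direction of both lists, the untreated changes of SCD (-1.35), FADS2 (-0.60) and ACSS2 (-0.38) were below 0. The difference between the states was 3.73 for SCD (adjusted p = 3.42e-07). MSMO1 (1.21) and INSIG1 (0.84) were above 0 in untreated cells as well, by less.

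Genes of the integrated stress response were higher in AI: of 16 tested factors 11 rose and 2 fell (median 1.07), and 11 and 1 did so on all 3 scales. ATF4, its central factor, was at 18.8 and 17.6 RPKM in AD and 67.2 and 68.4 RPKM in AI (log2 change 1.87, SE 0.271, limma adjusted p = 0.000239). ATF3, which ATF4 induces, was at 148 and 150.0 RPKM in AD and 971 and 963 RPKM in AI (log2 change 2.70, SE 0.0866, limma adjusted p = 6.64e-08), and DDIT3 (CHOP) at 163 and 140.4 RPKM in AD and 497 and 490.4 in AI (log2 change 1.70, SE 0.103, limma adjusted p = 1.25e-06). CHAC1, which degrades glutathione, was at 2.69 and 2.55 RPKM in AD and 18.99 and 17.1 in AI (log2 change 2.57, SE 0.155, limma adjusted p = 1.25e-06). The pseudokinase TRIB3 rose by 1.54 and CEBPG, a dimer partner of ATF4, by 1.43. AI was above AD in every library for these 6 genes, which were named for the size of their change. The 2 lines did not overlap, in either direction, for 84.6% of all genes tested. Among 12 enzymes of serine, glycine, asparagine and proline synthesis 7 rose and 1 fell, on all 3 scales. MTHFD2, of mitochondrial folate metabolism, was at 21.3 and 21.9 RPKM in AD and 113 and 112 in AI (log2 change 2.35, SE 0.103, limma adjusted p = 3.02e-07). ASNS, asparagine synthetase, rose by 1.49 and the 3 enzymes of serine synthesis PHGDH, PSAT1 and PSPH by 1.30, 1.04 and 1.09. SHMT1, the cytosolic serine hydroxymethyltransferase, fell, by 0.79 on the log2 scale.

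Of 12 tested amino acid transporters 4 were higher and 2 lower, on all 3 scales. With quantile normalization 8 were higher and with TMM 7, and 2 lower with each. SLC3A2, the heavy chain shared by several exchangers, was at 50.03 and 45.5 RPKM in AD and 178 and 181 RPKM in AI (log2 change 1.90, SE 0.138, limma adjusted p = 3.32e-06). SLC1A5, a glutamine carrier, rose by 1.31, and SLC7A11, the cystine light chain, rose at a low level (0.13 and 0.1 RPKM in AD and 0.95 and 1.13 in AI, log2 change 1.32). SLC38A2, a transporter that amino acid loss normally induces, fell, at 6.99 and 9.01 RPKM in AD and 2.45 and 2.45 in AI (log2 change -1.52, SE 0.151, limma adjusted p = 2.17e-05). Cytosolic aminoacyl-tRNA synthetases went both ways on the RPKM scale, with 6 of 20 higher, led by YARS1 (0.97) and GARS1 (0.91), and 8 lower (5 without the second AD mock library), none of them on all 3 scales. The element of ATF4 and its partners, searched as TGATGNAA, stood in 2 of 15 matched stress factors, in ASNS among 8 matched synthesis enzymes and in 1.55% of promoters of tested genes. The 3 matched stretches are given with the element in capitals.
CHAC1: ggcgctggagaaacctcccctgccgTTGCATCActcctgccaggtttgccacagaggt
ATF3: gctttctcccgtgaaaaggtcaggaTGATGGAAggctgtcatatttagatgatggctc
ASNS: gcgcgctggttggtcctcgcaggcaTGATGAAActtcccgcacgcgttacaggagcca
They lie at chr15:40953237-40953294, plus strand (CHAC1), chr1:212565191-212565248, plus strand (ATF3) and chr7:97872444-97872501, minus strand (ASNS), and all 3 genes rose.

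Chaperones of the ER were not called higher on the RPKM scale, unlike most stress factors. Of 21 tested none rose and 12 fell there (3 and 9 with quantile normalization, 5 and 8 with TMM), 6 of them on all 3 scales, not far from the share of all genes, and the median of -0.61 was close to the -0.43 of all genes. CALR, a calcium-binding chaperone of glycoproteins, was among the 10 genes with the highest mean level, at 3312 and 2656 RPKM in AD and 1223 and 1204 RPKM in AI (log2 change -1.29, SE 0.143, limma adjusted p = 4.24e-05). PDIA3, its thiol oxidoreductase partner, changed by -1.02, EDEM1, which passes misfolded glycoproteins to degradation, by -1.10 and the secreted stress factor MANF by -0.83. The ER stress element, searched as CCAAT and CCACG with 9 bases between them, stood in 6 of 20 matched promoters of the list and in 0.13% of promoters of tested genes, and the CALR match, on the opposite strand at chr19:12938359-12938427, plus strand, is shown.
CALR: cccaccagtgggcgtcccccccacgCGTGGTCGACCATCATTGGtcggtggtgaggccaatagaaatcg
Cytosolic heat shock proteins gave 5 falls and 1 rise among 13 tested, with 3 falls and no rise on all 3 scales, a share like that of all genes. HSPH1 (-1.24), HSPA4 (-1.03) and DNAJB1 (-0.86) were those 3.

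Androgen-induced genes were more often lower than higher in mock AI, with 14 of 24 tested lower and 4 higher (median -0.87, with 11 and 4 on all 3 scales). With quantile normalization 13 of these genes were lower and 6 higher, and with TMM 12 and 9. In untreated cells 8 of them were higher in AI and 8 lower (median 0.27). The mock change was called below the untreated one for 14 and above it for 7, and with TMM for 10 and 9. TMPRSS2, a serine protease whose promoter is androgen-driven, was at 438 and 440.3 RPKM in AD and 89.5 and 87.7 RPKM in AI (log2 change -2.30, SE 0.117, limma adjusted p = 4.85e-07). AZGP1 fell by 2.15 on the log2 scale, STEAP2, a metalloreductase, by 2.42 and C1orf116 by 4.53, the last at 21.2 and 23.5 RPKM in AD and 0.67 and 0.33 in AI. TSC22D3 (GILZ), which glucocorticoids also induce, rose, at 42.1 and 36.8 RPKM in AD and 234 and 223 in AI (log2 change 2.52, SE 0.136, limma adjusted p = 6.92e-07). KLK3, above, was not called lower. On a list of androgen-repressed genes and UGT2B enzymes, 4 of 6 tested fell and 1 rose, 3 and 1 on all 3 scales. BCHE, described below, fell most (-6.13), and CAMK2N1 (-1.72) and PRKD1 (-1.61) fell as well. UGT2B17, which glucuronidates androgens, rose at a low level (0.96 and 0.56 RPKM in AD and 2.53 and 2.98 in AI, log2 change 1.38). It has near-identical relatives, so reads could have been split among them.

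The luminal transcription factors moved apart from one another. FOXA1 was at 108 and 130.0 RPKM in AD and 16.7 and 17.8 RPKM in AI (log2 change -2.75, SE 0.1495, limma adjusted p = 7.18e-07), and both AI values were far below both AD values. CREB3L4 fell by 1.55 and GRHL2, a factor of epithelial identity, by 1.02 on the log2 scale. GATA2 was at 242 and 224 RPKM in AD and 258 and 252 in AI (0.13, adjusted p = 0.269). EHF, an epithelial ETS factor, rose, at 71.7 and 71.8 RPKM in AD and 197 and 201 in AI (log2 change 1.46, SE 0.227, limma adjusted p = 0.000366). Of 11 tested, 7 were lower and 2 higher, 4 and 2 on all 3 scales. Without the first AD or the first AI mock library 4 were called lower. EPCAM, an epithelial adhesion protein, rose by 0.78, while FOLH1, the prostate-specific membrane antigen, fell by 1.06 and ACP3, prostatic acid phosphatase, by 1.32.

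**Figure D3:**
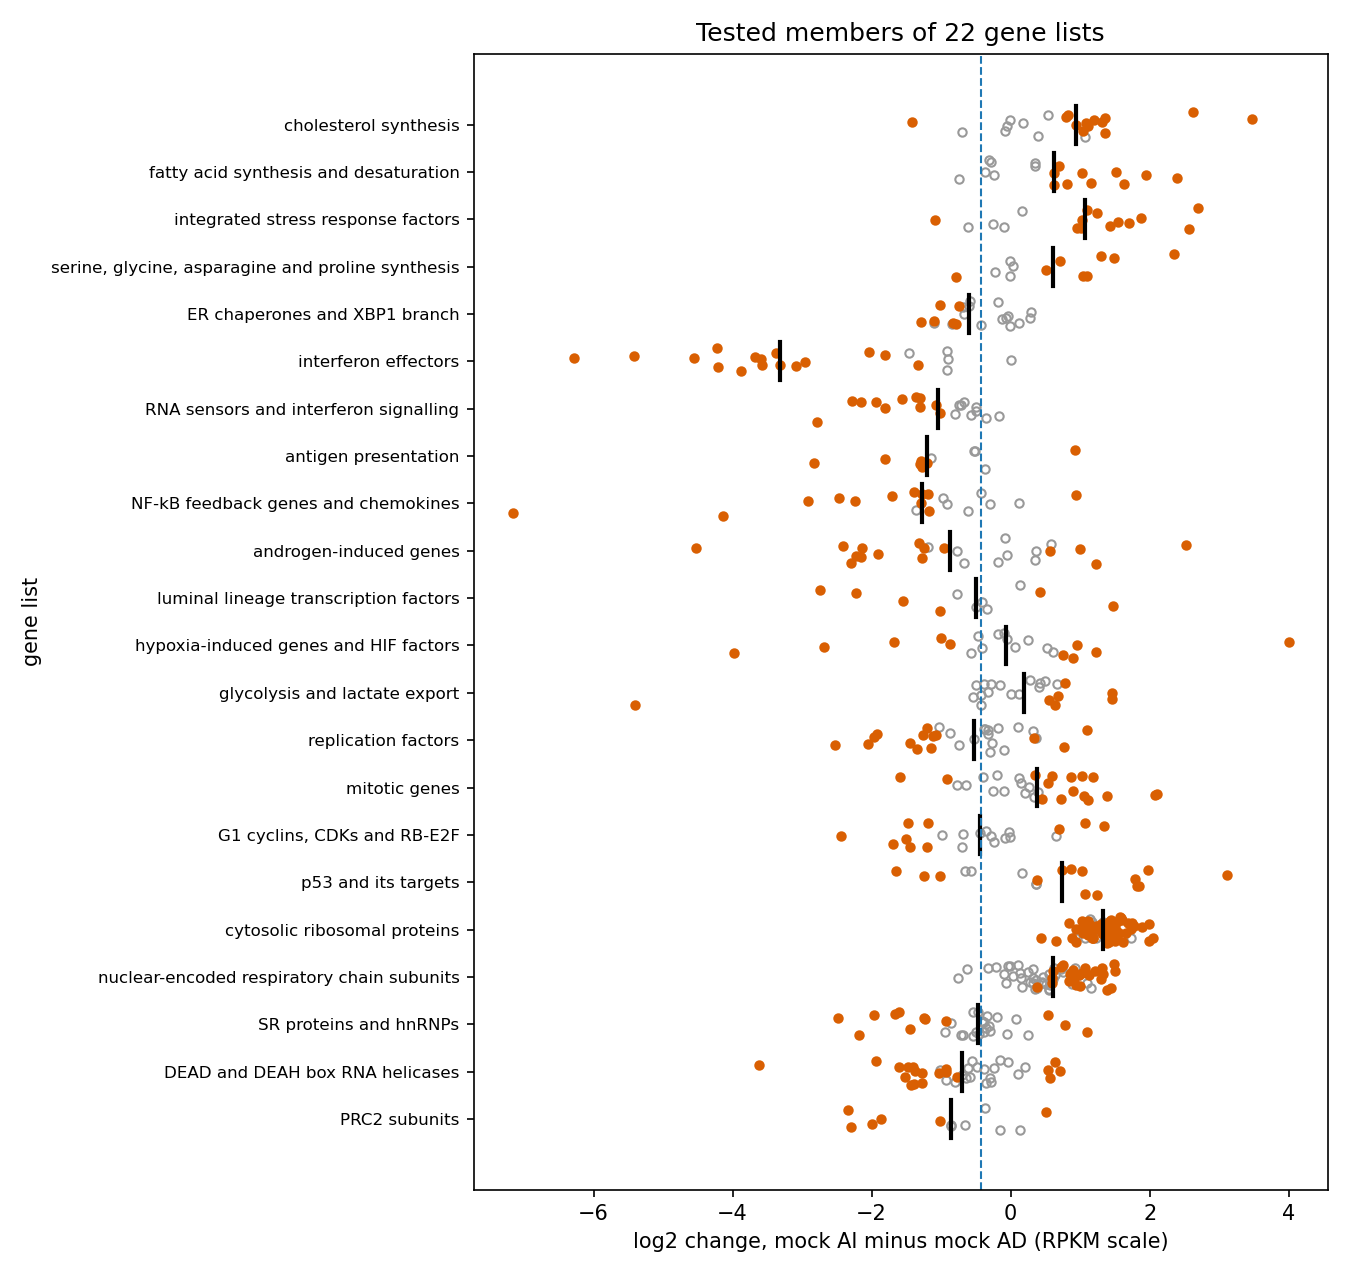
Log2 change (AI minus AD, mock cells) of every tested member of 22 gene lists on the RPKM scale. Orange points are genes called on all 3 scales, open grey points are the others, black bars are list medians and the dashed line is the median of all 12809 genes (-0.43); interferon effectors lie furthest to the left and cytosolic ribosomal proteins cluster on the right around their median of 1.33.

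Hypoxia genes went both ways in mock AI: of 20 tested, 5 rose and 8 fell (5 and 5 on all 3 scales), and 10 rose and 5 fell with TMM. ANKRD37, a HIF target, was at 57.3 and 55.01 RPKM in AD and 871 and 938 RPKM in AI (log2 change 4.00, SE 0.102, limma adjusted p = 3.04e-08). VEGFA, the vascular growth factor, was at 177 and 182 RPKM in AD and 419 and 422 in AI (log2 change 1.23, SE 0.121, limma adjusted p = 2.07e-05). NDUFA4L2, a HIF target that lowers complex I activity, fell, at 804 and 883 RPKM in AD and 53.2 and 52.4 RPKM in AI (log2 change -3.98, SE 0.108, limma adjusted p = 3.04e-08), as did the carbonic anhydrases CA12 (-2.69) and CA9 (-1.001). In untreated cells ANKRD37 was at 24.5 and 26.8 RPKM in AD and 6.68 and 6.77 RPKM in AI and VEGFA at 129.9 and 149 RPKM in AD and 35.6 and 43.99 RPKM in AI, so their order was the reverse. The difference between the states was 5.85 for ANKRD37 (adjusted p = 2e-08) and 3.03 for VEGFA (adjusted p = 2.25e-06). Across the hypoxia list 17 genes were called lower in untreated AI and 1 higher (median -1.54). The mock change was called above the untreated one for 14 of the list and below it for 4. Glycolysis showed 8 rises and 8 falls among 22 tested, 6 and 1 on all 3 scales. Leaving out either AD library or the first AI library left 4 falls, and leaving out the second AI library 3. With quantile normalization 6 rose and 10 fell, and with TMM 13 rose and 1 fell. In untreated cells 20 glycolysis genes were called lower in AI and 0 higher on the RPKM scale (median -1.54). Their mock change was called above the untreated one for 19 and below it for 0. GAPDH was at 806 and 818 RPKM in AD and 2199 and 2282 RPKM in AI (log2 change 1.46, SE 0.121, limma adjusted p = 7.09e-06) and ALDOC, an aldolase isoform, rose by 1.45. The lactate exporter SLC16A3 was at 27.2 and 24.2 RPKM in AD and 0.22 and 0.03 RPKM in AI (log2 change -5.40, SE 0.265, limma adjusted p = 4.19e-07), and at 17.96 and 9.32 RPKM in AD and 0.04 and 0.02 RPKM in AI in untreated cells. It was thus near 0 in all 4 AI libraries of both states.

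Replication factors fell more often than they rose, as did all genes on the RPKM scale (47% lower and 13.5% higher). Mitotic genes did the reverse. The replication median was -0.534 beside -0.43 for all genes, and -0.07 beside -0.032 with TMM. The mitotic median was 0.375 on the RPKM scale. Of 29 replication factors 17 fell and 3 rose (11 and 3 on all 3 scales), while of 28 mitotic genes 15 rose and 5 fell (14 and 2). Without the first AD mock library 9 mitotic genes and 1 replication factor were called higher. MCM3, of the replicative helicase, was at 59.9 and 57.4 RPKM in AD and 9.28 and 10.2 RPKM in AI (log2 change -2.53, SE 0.151, limma adjusted p = 1.15e-06). The origin subunit ORC6 fell by 2.05, the flap nuclease FEN1 by 1.97, GINS3 by 1.92 and PCNA, the sliding clamp, by 1.45 on the log2 scale. CDC20, which activates the anaphase-promoting complex, was at 10.3 and 10.6 RPKM in AD and 45.5 and 47.2 RPKM in AI (log2 change 2.10, SE 0.131, limma adjusted p = 1.47e-06), and CKS2, a CDK subunit, at 47.5 and 60.8 RPKM in AD and 212 and 247 in AI (log2 change 2.08, SE 0.207, limma adjusted p = 2.21e-05). CENPA, the centromere histone, and CCNA2 rose by 1.18 and 1.11, whereas CENPF, a kinetochore protein, fell by 1.59. Among 21 G1 genes 11 fell and 3 rose (7 and 3 on all 3 scales). On the RPKM scale these shares were near those of all genes, and the median of -0.44 was close to the -0.43 of all genes. CCND1 was at 178 and 183 RPKM in AD and 62.6 and 66.8 RPKM in AI (log2 change -1.47, SE 0.149, limma adjusted p = 2.41e-05), CCNE1 fell by 1.50 and the phosphatase CDC25A by 2.44. The CDK inhibitor CDKN1B (p27) rose, at 44.7 and 46.6 RPKM in AD and 115 and 117 in AI (log2 change 1.34, SE 0.132, limma adjusted p = 2.02e-05). In untreated cells the medians were 0.48 for replication factors and 0.49 for mitotic genes, both above 0.

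Of 19 tested genes of p53 and its targets 11 rose and 4 fell, 11 and 3 on all 3 scales (median 0.74). GADD45B was at 49.4 and 53.1 RPKM in AD and 438 and 450.0 RPKM in AI (log2 change 3.10, SE 0.151, limma adjusted p = 4.09e-07) and GADD45A at 69.8 and 74.2 RPKM in AD and 291 and 279 in AI (log2 change 1.98, SE 0.08802, limma adjusted p = 3.12e-07). BBC3 (PUMA), a death-promoting BH3 protein, rose by 1.85, FDXR by 1.82 and RRM2B, a ribonucleotide reductase subunit, by 1.79. The antiproliferative BTG2 fell by 1.65. Immediate early genes rose in 6 of 12 and fell in 3: FOS was at 4.41 and 4.08 RPKM in AD and 27.9 and 25.5 RPKM in AI (log2 change 2.52, SE 0.148, limma adjusted p = 1.03e-06) and JUND rose by 1.23, while EGR1 fell, at 4.09 and 3.98 RPKM in AD and 0.32 and 0.05 in AI (log2 change -2.76, SE 0.234, limma adjusted p = 8.18e-06). FOS was also a gene whose order turned, from 13.8 and 12.4 RPKM in AD and 1.05 and 0.83 RPKM in AI in untreated cells. ID2 and ID3, inhibitors of basic helix-loop-helix factors and targets of BMP signalling, were at 0.59 and 0.86 RPKM in AD and 16.6 and 14.4 in AI and 0.92 and 2.86 RPKM in AD and 27.6 and 26.9 in AI, with log2 changes of 3.71 and 3.67. ID1 rose by 1.60. BAMBI, a decoy receptor of the pathway, fell, at 115.7 and 140.0 RPKM in AD and 14.2 and 15.2 in AI (log2 change -3.07, SE 0.148, limma adjusted p = 4.01e-07), with SMAD1 (-1.47) and SMAD6 (-1.63). MYC was at 97.9 and 97.1 RPKM in AD and 32.4 and 29.03 RPKM in AI (log2 change -1.65, SE 0.1, limma adjusted p = 1.25e-06), its partner MAX fell by 1.43, and ODC1, a MYC target that starts polyamine synthesis, fell by 1.65.

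Cytosolic ribosomal protein genes rose nearly together in mock AI. Of 73 tested cytosolic ribosomal protein genes 68 were higher and none lower, 58 on all 3 scales, and the median was 1.33 on the RPKM scale, 1.14 with quantile normalization and 1.80 with TMM. They held 4.81% and 4.78% of summed RPKM in AD and 10.4% and 10.8% in AI. In untreated cells these shares were 11.8% and 7.04% in AD and 10.0% and 6.35% in AI. There 4 of the genes were called higher in AI and 6 lower, with a median of -0.165. The mock change was called above the untreated one for 59 and below it for 0. RPL35 was at 419 and 379.6 RPKM in AD and 1631 and 1675 RPKM in AI (log2 change 2.05, SE 0.181, limma adjusted p = 1.09e-05), and RPL12 at 49.3 and 53.4 RPKM in AD and 171 and 175 in AI (log2 change 1.74, SE 0.115, limma adjusted p = 2.01e-06). Many ribosomal protein genes have processed pseudogenes, so single values are uncertain. Translation factors rose in 20 of 32 and fell in 7 (14 and 3 on all 3 scales), and 12 or 13 were called higher without the first AD or the second AI library. They had TPT1 (1.46) and EIF3E (1.35) among the rises and EIF4G2 (-1.41) among the falls. Nuclear-encoded respiratory chain subunits rose in 33 of 66 and fell in 2, with 26 and 0 on all 3 scales, and 53 rose with TMM. ATP5F1E, of ATP synthase, rose by 1.50 and COX7B by 1.44. Mitochondrial ribosomal proteins rose in 22 of 73 and fell in 7 (21 and 1 on all 3 scales), and MRPL53 rose by 1.91. With quantile normalization 31 rose and 3 fell, with TMM 54 and 2, and without the first AD, second AD, first AI or second AI library 3, 3, 2 and 4 fell. The snoRNA host genes and abundant noncoding RNAs rose in 13 of 19 and fell in 3, 13 and 1 on all 3 scales, with SNHG1 at 7.92 and 8.79 RPKM in AD and 42.1 and 40.6 in AI (log2 change 2.24, SE 0.131, limma adjusted p = 1.02e-06) and MALAT1 at 179.9 and 186 RPKM in AD and 478 and 424 in AI (log2 change 1.30, SE 0.162, limma adjusted p = 9.43e-05).

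Transcripts of the mitochondrial genome moved in opposite directions. The ribosomal RNAs MT-RNR2 and MT-RNR1 rose, at 3209 and 3396 RPKM in AD and 10773 and 11181 RPKM in AI (log2 change 1.73, SE 0.242, limma adjusted p = 0.000189) for the first. MT-CYB, of complex III, fell, at 564 and 490.2 RPKM in AD and 70.2 and 74.9 RPKM in AI (log2 change -2.85, SE 0.205, limma adjusted p = 3.21e-06), and MT-ND6, the subunit encoded on the light strand, at 384 and 321 RPKM in AD and 45.1 and 35.04 in AI (log2 change -3.13, SE 0.386, limma adjusted p = 8.57e-05). Of 15 tested, 2 rose and 7 fell. In untreated libraries the messenger RNAs were far more abundant, MT-CYB at 4995 and 7211 RPKM in AD and 3786 and 5532 RPKM in AI. Mitochondrial transcripts made up 18.4% to 33.4% of summed RPKM in untreated libraries against 2.37% to 4.07% in mock ones. Their part in the differences between mock and untreated cells was not tested.

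Many RNA helicases were lower. Of 37 DEAD and DEAH box helicases 25 fell and 4 rose (15 and 4 on all 3 scales). Without the first AD, first AI or second AI library 1, 2 and 1 rose. DDX5, a helicase in splicing and transcription, was at 275 and 303 RPKM in AD and 21.6 and 24.4 RPKM in AI (log2 change -3.62, SE 0.105, limma adjusted p = 3.61e-08), and its paralog DDX17 fell by 1.94. Among 33 SR proteins and hnRNPs, which bind pre-mRNA and steer splicing, 21 fell and 3 rose. On all 3 scales 9 fell and 3 rose, close to the shares over all genes. Named members were SRSF1 at 6.69 and 6.27 RPKM in AD and 0.98 and 0.56 in AI (log2 change -2.48, SE 0.208, limma adjusted p = 7.7e-06), SRSF5 (-2.18) and HNRNPM (-1.96). In untreated cells the medians of the 2 lists were 0.38 and 0.45.

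PRC2 subunits fell in 9 of 12 and rose in 1, with 5 and 1 on all 3 scales. The 5 were RBBP7, at 158 and 153 RPKM in AD and 32.3 and 30.5 RPKM in AI (log2 change -2.29, SE 0.114, limma adjusted p = 4.39e-07), EPOP (-2.34), EED (-1.99), JARID2 (-1.86) and RBBP4 (-1.02). SUZ12 fell by 0.66 on the RPKM scale alone, and not without the first AD (adjusted p = 0.0681) or the second AI library (adjusted p = 0.0517), and AEBP2, an accessory subunit, rose by 0.51, a call lost without any 1 mock library (adjusted p from 0.0711 to 0.0791). Of 20 PRC1 subunits and readers 4 rose and 6 fell (9 and 6 with quantile normalization, 8 and 5 with TMM, 4 and 4 on all 3 scales), including the readers CBX6 (-2.14) and CBX7 (-1.90) among the falls and RYBP (1.73) among the rises. The maintenance methyltransferase DNMT1 and its partner UHRF1 changed by -1.21 and -1.44, and KDM6A, an H3K27 demethylase, by -1.29.

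H3K27me3, the mark that PRC2 places, had been mapped in other samples, from untreated AD and AI cells, 2 a line. They had 70791 to 124079 peaks a sample. Marks of untreated cells are thus set beside RNA changes of mock cells. A peak within 2000 bases of the RefSeq start in both samples of a line was rare among tested genes: 94 of 9532 (0.99%) in AD and 150 (1.57%) in AI. Among genes called lower 1.27% were marked in AD and 1.80% in AI, and among genes called higher 0.54% and 0.93%. The 109 genes marked in AI alone had a median change of -0.51 and the 53 marked in AD alone -0.89, against -0.42 for the 9329 marked in neither. That order turned with a peak in either sample counted, where 528 genes were marked in AI alone (median -1.005) and 56 in AD alone (-0.545), against -0.38 for those in neither. In that setting 2.89% of tested genes were marked in AD and 7.84% in AI, beside 3.99% and 11.6% of lower genes and 2.09% and 3.87% of higher genes. Of 18 genes with the largest changes or an AI-specific pattern that could be matched, DIO3 carried a peak in AI alone and TNNT1 in both lines. In mock cells DIO3, which inactivates thyroid hormone, was at 242 and 212 RPKM in AD and 0.32 and 0.15 RPKM in AI (log2 change -8.28, SE 0.268, limma adjusted p = 6.64e-08). In untreated cells, where the mark was mapped, its log2 change was 0.096 and was not called. A link between its mark and its RNA level was not tested.

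Several other lists had members called in both directions. Among 14 targets and regulators of NRF2, the oxidative stress factor, 3 rose and 5 fell on all 3 scales. HMOX1, heme oxygenase, was at 62.4 and 59.8 RPKM in AD and 10.4 and 10.5 in AI (log2 change -2.49, SE 0.139, limma adjusted p = 8.25e-07). TXNRD1, thioredoxin reductase, was at 81.2 and 88.2 RPKM in AD and 32.2 and 33.3 in AI (log2 change -1.36, SE 0.107, limma adjusted p = 5.23e-06). The largest change of the list was a rise, that of PTGR1 (5.98), described below. TKT, of the pentose phosphate pathway, rose by 0.88. In the MYC network 9 of 15 tested genes fell and 3 rose (median -0.82), 5 and 3 on all 3 scales. MYCL (-1.53) was among the falls, and the rises were the antagonists MXD1 (1.15) and MXI1 (0.89) and NPM1 (1.06). Of 18 genes of homologous recombination and Fanconi repair 9 fell and 1 rose, 3 and 1 on all 3 scales, with FANCL (-1.46) among the falls. Among 27 proteasome subunits 7 fell and 3 rose, but 1 and 1 on all 3 scales (1 and 12 with TMM), and PSMD12 (-1.09) was the fall. MT2A, a metallothionein that buffers zinc and copper, was at 96.6 and 85.8 RPKM in AD and 15.6 and 16.3 in AI (log2 change -2.48, SE 0.403, limma adjusted p = 0.000491) and has near-identical relatives, so its value is uncertain. Of 16 epithelial to mesenchymal markers 3 rose and 3 fell, 2 and 2 on all 3 scales, while 7 rose and 2 fell with quantile normalization and with TMM. VIM (vimentin) was at 10.9 and 13.9 RPKM in AD and 20.8 and 17.96 in AI (log2 change 0.62, SE 0.153, limma adjusted p = 0.0056) and fibronectin, FN1, at 141 and 139 RPKM in AD and 53.7 and 49.7 in AI (log2 change -1.43, SE 0.132, limma adjusted p = 1.37e-05). In untreated cells VIM was at 6.29 and 5.73 RPKM in AD and 0.33 and 0.49 RPKM in AI, so its order was the reverse. The call of VIM in mock cells was lost without the first AD library (adjusted p = 0.0564) or the first AI library (adjusted p = 0.0501), and 1 marker was then called higher. ITGB4, a basal integrin, fell by 2.57. Of 5 tested neuronal and neuroendocrine genes none rose and 2 fell, or 1 with any library left out, and SYP (synaptophysin) was at 2.07 and 1.72 RPKM in AD and 0.3 and 0.32 in AI (log2 change -1.56, SE 0.196, limma adjusted p = 9.68e-05). H3K27 and H3K36 methylation enzymes fell in 8 of 13 and rose in 1, 4 and 1 on all 3 scales, with the demethylases KDM4C (-1.48) and KDM2A (-1.23) among the falls.

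The remaining genes of largest change were of mixed function. BCHE, butyrylcholinesterase, counted above with the androgen-repressed genes, was at 63.4 and 72.8 RPKM in AD and 0.45 and 0.51 in AI (log2 change -6.13, SE 0.168, limma adjusted p = 3.04e-08). CHST2, a sulfotransferase, was at 35.5 and 41.1 RPKM in AD and 0.19 and 0.24 in AI (log2 change -5.76, SE 0.153, limma adjusted p = 3.04e-08), and SDCBP2 at 44.2 and 44.1 RPKM in AD and 0.71 and 1 in AI (log2 change -5.05, SE 0.378, limma adjusted p = 3.91e-06). In untreated cells CHST2 was at 0.21 and 0.07 RPKM in AD and 0.25 and 0.26 RPKM in AI, so it was low there in both lines. LPAR3, a lysophosphatidic acid receptor, was at 16.8 and 16.4 RPKM in AD and 0.09 and 0.07 in AI (log2 change -4.88, SE 0.138, limma adjusted p = 3.3e-08) and at 32.2 and 35.2 RPKM in AD and 3.78 and 4.62 RPKM in AI in untreated cells, lower in AI in both states. CPQ, a peptidase, was at 13.1 and 11.2 RPKM in AD and 0 and 0 in AI. TNNT1, slow skeletal troponin T, was at 135 and 106 RPKM in AD and 2.13 and 3.35 in AI (log2 change -5.24, SE 0.251, limma adjusted p = 3.87e-07). TMEM45B rose, at 0.17 and 0.73 RPKM in AD and 23.3 and 23.4 in AI (log2 change 4.72, SE 0.3498, limma adjusted p = 3.71e-06), and was at 1.24 and 0.76 RPKM in AD and 104 and 56.8 RPKM in AI in untreated cells. CYB5R2, a cytochrome b5 reductase, was at 0.22 and 0.09 RPKM in AD and 9.31 and 10.6 in AI (log2 change 4.00, SE 0.217, limma adjusted p = 7.07e-07). Among the 10 genes of highest level, CKB, creatine kinase B, was at 1514 and 1442 RPKM in AD and 5060.1 and 4871 in AI (log2 change 1.75, SE 0.1903, limma adjusted p = 3.83e-05) and the elongation factor EEF2 at 4144 and 4026 RPKM in AD and 5873 and 5703 in AI (log2 change 0.50, SE 0.144, limma adjusted p = 0.0123). GDF15, a secreted stress cytokine, was at 3536 and 3716 RPKM in AD and 5150.5 and 5154 in AI (log2 change 0.51, SE 0.173, limma adjusted p = 0.028) and at 4533 and 3226 RPKM in AD and 317 and 279 RPKM in AI in untreated cells. EEF2 was the gene called the other way to its RPKM call, with a log2 change of -0.77 by quantile normalization (adjusted p = 0.000195). GDF15 had -0.28 with quantile normalization (adjusted p = 0.238). Leaving out any 1 mock library ended the RPKM calls of both, with log2 changes of 0.482 to 0.524 for EEF2 and 0.471 to 0.543 for GDF15.

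A small set of genes near 0 in one line and well above it in the other kept that order in both states. PTGR1, which reduces leukotriene and prostaglandin intermediates, was at 0.07 and 0.11 RPKM in AD and 38.6 and 34.9 RPKM in AI (log2 change 5.98) and at 0.07 and 0.22 RPKM in AD and 25.04 and 36.7 RPKM in AI in untreated cells. HTATIP2 was at 0 and 0.15 RPKM in AD and 20.4 and 24.1 in AI (5.31). MEST, an imprinted gene, SLC34A3, a phosphate carrier, and CLU (clusterin) had mock changes of 2.64, 2.75 and 2.32 and untreated changes of 2.65, 2.71 and 3.16. These 5 genes were chosen for that pattern, so their values are a description. With on set at 5 RPKM or more in both libraries and off below 0.5 RPKM in both, 4 genes were on in mock AI and off in mock AD and 55 the other way round. In untreated cells the numbers were 6 and 14, with 2 and 6 shared with mock cells and none reversed. HOXC10, a posterior homeobox gene, was 1 of those 6, at 13.6 and 12.6 RPKM in AD and 0.06 and 0 in AI in mock cells, where the change was -4.68, and 5.87 and 6.88 RPKM in AD and 0.06 and 0 RPKM in AI in untreated cells.

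Across all genes the AI against AD change differed between mock and untreated cells for 6993 of 12809 (54.6%): the mock change was lower than the untreated one for 5717 and higher for 1276. These were 44.6% and 9.96% of genes tested. With quantile normalization the numbers were 2858 (22.3%) and 2648 (20.7%), 43% in all. In untreated cells 37.4% of genes were called, 24% higher in AI and 13.4% lower. Of the 1733 genes higher in mock AI, 534 (30.8%, and 17.4% of those higher in untreated AI) were also called higher in untreated cells, and 215 were called lower there. Of the 6022 lower in mock AI, 1052 (17.5%, and 61.2% of those lower in untreated AI) were lower in untreated cells and 1392 were called higher. Across genes, mock AI against untreated AI gave r from 0.867 to 0.887 and mock AI against untreated AD from 0.881 to 0.888. The untreated libraries were deeper, at an estimated 17.5 to 58.03 M reads, and whether they were made together with the mock libraries is not given.

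The siEZH2 libraries gave nearly the same contrast between the lines. They share no library with the mock comparison, and 61.8% of genes were called, 11.6% higher in AI and 50.3% lower. Of the genes lower in mock AI 5511 (91.5%) were lower in AI there too and none was higher, and of those higher 1232 (71.1%) were higher and 8 lower. The difference between the mock and siEZH2 changes passed for 0 genes with limma, with 903 genes (7.05%) at an unadjusted p of 0.05 or less. With the 8 transfected libraries alone 1 gene passed and 1769 (13.8%) were at such a p, and with the replicate block 0 passed and 1844 (14.4%) were. FDFT1 was at 93.2 and 94.7 RPKM in AD and 616 and 607 RPKM in AI, ATF3 at 143 and 146 RPKM in AD and 1017 and 1028 RPKM in AI and MCM3 at 63.1 and 59.95 RPKM in AD and 7.38 and 7.63 RPKM in AI, each in the order of the mock libraries.

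**Figure D4:**
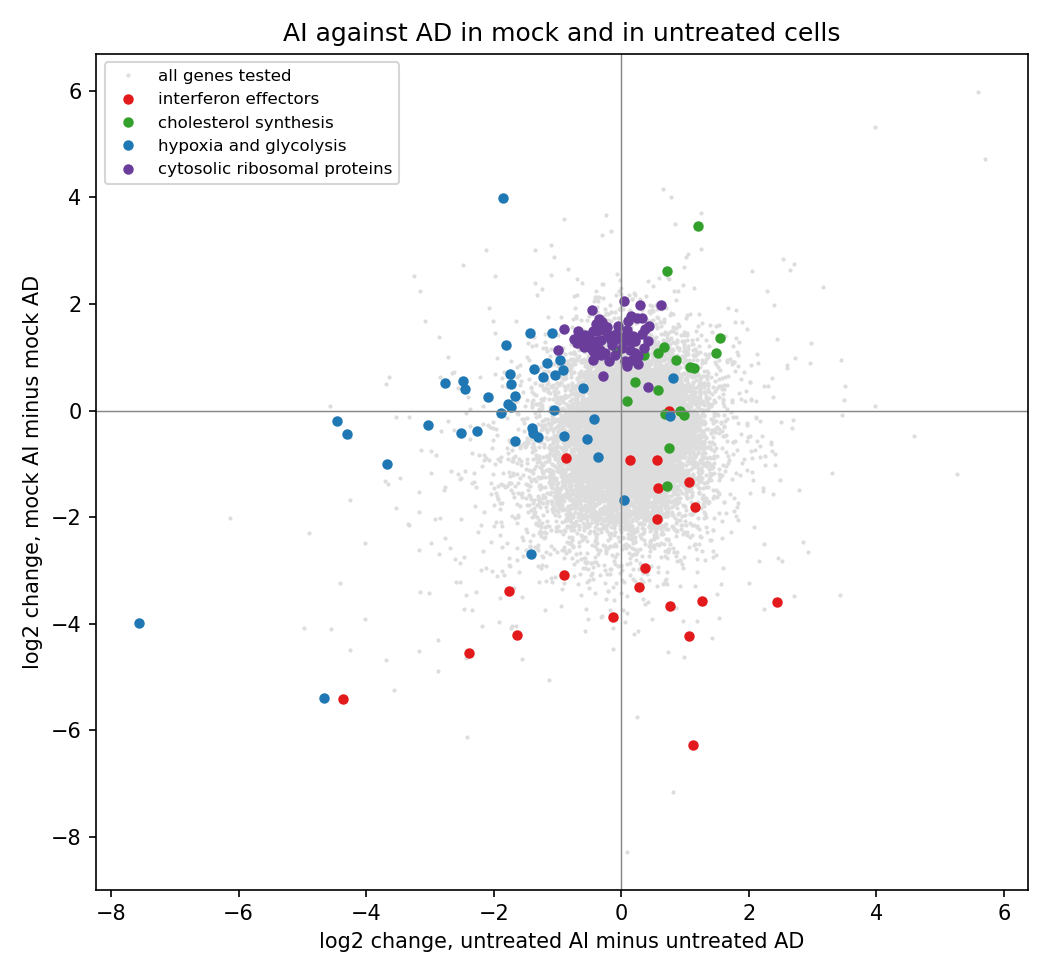
Log2 change (AI minus AD) in mock cells on the vertical axis against that in untreated cells on the horizontal axis, for the 12809 tested genes (grey) and 4 gene lists (coloured), on the RPKM scale. Interferon effectors lie below 0 vertically while spread around 0 horizontally. Most hypoxia and glycolysis genes lie left of 0. Vertically they spread to both sides of 0, with list medians of -0.07 and 0.20. Ribosomal proteins form a compact cloud above 0.

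On the RPKM scale change also differed with gene span, the RefSeq distance from start to end, known for 11839 tested genes (92.4%). Among 5 bins of equal size, the one with the shortest spans, up to 8572 bases, had a median log2 change of -0.32 with 18.9% called higher and 41.8% lower. The middle bin, from 19968 to 39793 bases, had -0.48 with 11.6% and 51.1%, and the bin of the longest spans -0.40 with 11.99% and 46.96%. The pattern was not the same on the other scales: the medians of the shortest, middle and longest bins were 0.055, -0.054 and 0.16 with quantile normalization and 0.064, -0.072 and -0.021 with TMM. Span differs from transcript length, which was not used here.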

How the data were processed

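Values are RPKM per gene, which the authors deposited in 1 table of 12 RNA-seq libraries. The submitters' processing notes name cutadapt, TopHat2, edgeR and GRCh38, with no role or order, and the extract protocol in the labels speaks of a directional, paired-end library of polyadenylated RNA. Counts were not used, so depth was estimated from the steps between low values (a value within 2% of a whole read was taken as whole), which held for 80% to 100% of the values used. Genes at 0.5 RPKM or more in at least 2 of the 4 mock libraries were kept, and log2(RPKM + 0.5) was fitted with limma 3.58.1 in R 4.3.3 (trended variance, 1 coefficient per group, all 12 libraries, which share 1 estimate of the spread). Calls used a Benjamini-Hochberg adjusted p of 0.05. On simulated data made from these libraries (50 genes per size), 98% and 100% of log2 changes of -2 and 2 were called and 58% and 64% of changes of -1 and 1, with 5 false calls among 12809 genes.

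H3K27me3 peaks came as 1 list a sample, whose deposited columns hold a score per peak by the authors' caller. Starts and promoters were matched by symbol to RefSeq (GRCh38.p14), for 9532 of the tested genes. Alternatives were the pseudocount (0.1, 1), the filter (none, 1 RPKM), quantile and TMM scaling, fits to the 4 mock or the 8 transfected libraries, leaving out each mock library, and the replicate number as a block. Named genes were EZH2, the 12 largest rises and falls among genes averaging 1 RPKM or more, the 10 genes of highest level, 5 genes high in AI in both states, and, per gene list, every tested member of lists of at most 15 or else the 6 called members with the largest change. Of these, the genes that carry each comparison are described, and genes outside the rule are said to be so. The comparison and the gene lists were chosen with earlier results of these data known. Symbols are those of the table, brought up to date by gene ID. Some members of the lists are not reported here by name.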

Additional observations from a re-analysis of the deposited data

Results flagged for a closer look

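The AI against AD change differed between mock and untreated cells, by an interaction test in limma, for 6993 of the genes tested. The genes listed here were named above, were called in opposite directions in the 2 states and had a called difference. They were chosen by that rule, so the call of each difference is no further result. The value given is the log2 change in mock cells minus that in untreated cells, so a negative value means that AI stood lower against AD in mock cells. Among interferon, sensor and antigen presentation genes, the difference was -7.40 for OASL, -5.29 for IFI44, -3.96 for RIGI, -3.10 for DHX58, -2.82 for IFIH1, -3.70 for PSMB9, -3.63 for PSMB10, -2.26 for PSMB8, -2.17 for ERAP1, -1.72 for TAPBP and -3.02 for NFKB1. For androgen, hypoxia and glycolysis genes it was -5.27 for C1orf116, -3.10 for CAMK2N1, 4.24 for UGT2B17, 4.51 for TSC22D3, 5.85 for ANKRD37, 3.03 for VEGFA, 2.56 for GAPDH and 2.88 for ALDOC. In the set of lipid and amino acid genes it came to 3.73 for SCD, 2.11 for FADS2, 2.33 for ACSS2, -2.13 for GGPS1 and -1.31 for SHMT1. Of the stress, early response and growth genes, the values were 5.76 for FOS, 2.57 for JUND, -4.19 for EGR1, 4.21 for GADD45B, -2.29 for HSPH1, -1.98 for HSPA4, -2.16 for SMAD1, 1.91 for CDKN1B, 2.05 for MXI1, -2.35 for TXNRD1 and 1.60 for TKT. For replication and repair genes the difference was -3.05 for MCM3, -2.68 for ORC6, -2.66 for FEN1, -2.49 for PCNA and -2.34 for FANCL. Among RNA-binding and translation genes it was -4.37 for DDX5, -3.09 for SRSF1, -2.61 for SRSF5, -2.65 for HNRNPM, -1.93 for EIF4G2, 0.91 for EEF2 and 2.49 for MALAT1. The Polycomb genes had differences of -1.72 for EZH2, -1.46 for SUZ12, -2.63 for RBBP7, -3.25 for CBX6 and -2.59 for CBX7. Lastly, other genes had -1.82 for PSMD12, 3.47 for VIM, 2.89 for CKB and 4.19 for GDF15. The untreated libraries held 18.4% to 33.4% of summed RPKM in mitochondrial transcripts and the mock ones 2.37% to 4.07%, and the part of that difference in these values was not tested. Groups of 2 were too small to test for outlying libraries.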

How the results depend on the processing

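The number of genes called (7755) stayed within 1.5 times under every alternative run, from 6452 to 6501 with 1 mock library left out to 9054 with the replicate block. Scaling changed the split: 3430 genes were higher and 3478 lower with quantile normalization, 3532 and 4005 with TMM, and 3043 were lower on all 3 scales, a count chosen after seeing the data. With 1 library left out, 1207 to 1370 genes were called higher and 5129 to 5290 lower. The median change over all genes was -0.491 with a pseudocount of 0.1, -0.374 with 1, -0.056 with no filter, 0.027 with quantile normalization and -0.032 with TMM, and -0.457 to -0.419 with 1 library left out. The share of higher genes with a H3K27me3 peak was 2.09% in AD and 3.87% in AI with a peak in either sample, and in AI 0.08% with the peak over the start itself and 0.39% with the upper part of the scores. Among lower genes the AD share was 0.85%, 0.79% and 3.99% with a peak over the start, with high scores and in either sample, and the AI share 0.90%, 1.01% and 11.6%. Signs turned for few named genes: with quantile normalization EEF2 (-0.77), GATA2 (-0.18), GDF15 (-0.28), KLK3 (-0.59) and USP18 (0.28), with TMM SREBF1 (0.27) and USP18 (0.46), while USP18 ranged from -0.086 to 0.086 with 1 library left out. The cause was not tested. The replicate numbers did not pair the mock libraries, whose deviations correlated at 0.083 (0.722 in untreated and 0.009 in siEZH2 libraries). With the replicate block 9054 genes were called, 2356 higher and 6698 lower, and 8290 differed between mock and untreated cells. Depth of 8.94 to 12.7 M reads limits genes near 0.5 RPKM.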
